A study of Mus musculus with 4 samples.

Results

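The 9 genes described here encode core and formative regulators of pluripotency: Pou5f1, Sox2, Sall4, Utf1 and L1td1 form the core group, and Otx2, Zic2, Foxd3 and Pou3f1 the group of the formative and primed state. They were chosen by name from the 24421 genes counted in mouse R1 embryonic stem cells (ESCs), and all 9 had counts. RNA from 4 Illumina TruSeq libraries was compared, 2 labelled Undiff and 2 labelled Day4. According to the methods, Undiff cells were kept in serum medium with leukaemia inhibitory factor (LIF), although the labels call them embryoid bodies. Day4 cells were grown as embryoid bodies without LIF for 4 days and then with retinoic acid (RA) for 4 days, in the same R1 line. No Day4 library without RA was analysed here, so that RA, loss of LIF and growth as embryoid bodies cannot be told apart. The replicates were cultures grown and treated separately.

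Pluripotent cells can form all tissues of the embryo proper. OCT4, the protein of Pou5f1, binds DNA together with SOX2 at many enhancers of ESCs, and the pair maintains its own expression and that of other pluripotency genes. As cells leave the naive state towards the formative and primed states of the epiblast, OTX2 and the POU factor OCT6 (Pou3f1) act with OCT4 at a new set of enhancers, and both are later used in the developing nervous system. RA is a ligand of nuclear receptors and is a classical inducer of ESC differentiation.

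Depth ranged from 32099074 to 47730944 counts on genes per library. Fragments assigned to no gene made up 12.1% and 13.2% of the Undiff libraries and 7.50% and 7.75% of the Day4 libraries, a share that differed with the state and whose part in the results was not tested. Genes were called differentially expressed (DEGs) by the edgeR quasi-likelihood test where the adjusted p-value did not exceed 0.05, the log2 fold change reached 1 in either direction and normalized counts averaged 5 or more. Of 19891 genes with a count, 42.8% were DEGs, 20.6% lower in Day4 and 22.2% higher, and the median log2 fold change of all of them was -0.03.

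The DNA beside the start sites was examined for letters that factors of this network bind. RefSeq start windows on GRCm38.p6, each covering 250 bases before and 50 after an annotated start, were at hand for 6 members (Pou5f1, Sox2, Utf1, L1td1, Otx2 and Foxd3), with 10 windows in all. Both strands were searched for the octamer ATGCAAAT of POU factors, the letters CATTGTT of SOX factors and the letters AGGTCA of nuclear receptors, the class to which RA receptors belong. The 3 stretches that held a match are shown, with the match in capitals. The first lies just before the main Pou5f1 start (chr17:35505979-35506024, plus strand, of which the last bases fall in the first exon). The second lies in a Pou5f1 intron before an internal start (chr17:35508628-35508674, plus strand). The third lies before a RefSeq Sox2 start at 34649995 (chr3:34649745-34649776, plus strand, in no annotated exon). That start is upstream of the GENCODE start of Sox2 at 34650405. The Otx2 windows all lay at internal starts, away from the GENCODE start of the gene.

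Pou5f1 AGGTCA: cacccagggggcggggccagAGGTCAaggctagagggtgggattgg
Pou5f1 SOX: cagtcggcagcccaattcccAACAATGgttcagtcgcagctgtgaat
Sox2 AGGTCA: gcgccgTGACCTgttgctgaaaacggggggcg

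The matches of the last 2 stretches are read on the minus strand. AGGTCA was present in 16.3% of 32851 start windows of all genes, CATTGTT in 3.78% and the octamer in 1.74%. No member window held the octamer, which says only that these letters are not in these windows.

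Of the 9 regulators, 8 were lower in Day4 and called as DEGs, against 20.6% of all genes called lower. The 5 core genes and Otx2, Zic2 and Foxd3 fell, and Pou3f1 was not called. The fitted log2 fold changes of the 8 ran from -13.09 for Otx2 to -5.01 for L1td1. The 2 states did not overlap in any of these 8 genes. In bulk RNA, fewer cells of a type and less RNA per cell cannot be told apart. Levels are given in CPM, the counts of a gene relative to the library total, scaled by TMM.

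**Figure D1:**
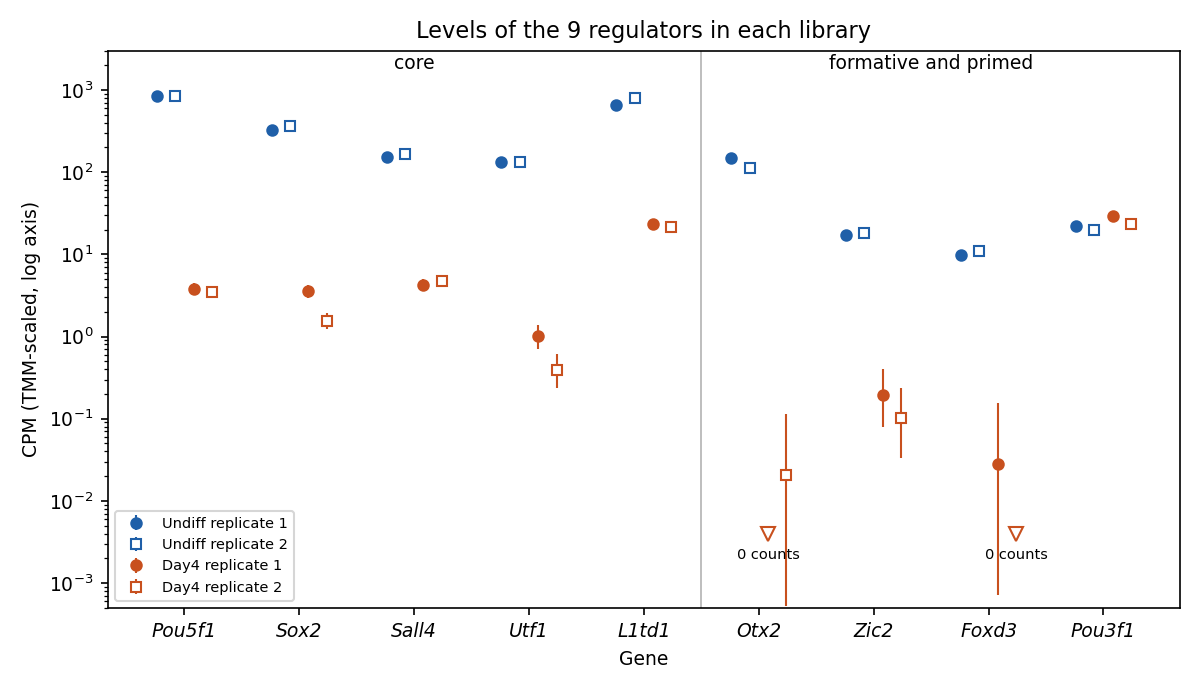
CPM of each regulator on a log axis in the 4 libraries, with bars for the 95% Poisson interval of the count, which covers counting error only; open triangles mark libraries with 0 counts and are placed below the scale of the values. Undiff (blue) lies above Day4 (orange) for every gene but Pou3f1, whose Day4 libraries lie at 29.6 and 23.4 CPM against 21.9 and 19.98 in Undiff.

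Pou5f1 encodes OCT4, the POU factor without which no pluripotent cells form. Its level was 837.6 and 854.4 CPM in the Undiff libraries, and 3.79 and 3.49 CPM in the Day4 libraries, from 136 and 170 counts. Day4 kept 0.428% of the Undiff level, and the groups lay far apart, with replicates close to each other in both states. The log2 fold change was -7.87 ± 0.06 (SE, n = 2 per state, edgeR adjusted p = 4.65e-17).

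Sox2 encodes the HMG-box partner of OCT4, which also marks neural progenitors. Its 329.2 and 367.0 CPM in Undiff became 3.54 CPM in Day4 replicate 1 and 1.56 CPM in replicate 2. The Day4 libraries differed by 2.27-fold (exact 95% interval for counting error 1.70 to 3.06), while the Undiff libraries were close. The log2 fold change was -7.17 ± 0.15 (SE, n = 2 per state, edgeR adjusted p = 8.31e-14). It was -7.80 without Day4 replicate 1 and -6.65 without Day4 replicate 2.

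Utf1 encodes a chromatin-associated factor that is restricted largely to pluripotent and germ cells and is a target of OCT4 and SOX2. It stood at 134.4 and 132.7 CPM in Undiff, with hardly any difference between these libraries. In Day4 it was at 1.00 CPM in replicate 1 and 0.390 CPM in replicate 2, from 36 and 19 counts, a 2.58-fold difference (exact 95% interval 1.44 to 4.76). Its log2 fold change was -7.67 ± 0.13 (SE, n = 2 per state, edgeR adjusted p = 1.59e-14), and -8.41 without Day4 replicate 1 or -7.08 without replicate 2.

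Sall4 encodes a zinc-finger factor that supports Pou5f1 expression. It had 152.2 and 166.7 CPM in Undiff, and 4.24 and 4.68 CPM in Day4. The replicates were alike in both states, and Day4 kept 2.83% of the Undiff level. The log2 fold change was -5.15 ± 0.08 (SE, n = 2 per state, edgeR adjusted p = 4.4e-15).

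L1td1 encodes an RNA-binding protein derived from a LINE-1 retrotransposon and is abundant in ESCs. Its level was 655.8 and 788.5 CPM in Undiff and 23.2 and 21.7 CPM in Day4, from 830 and 1057 counts. Day4 kept 3.11% of the Undiff level, the highest share among the 8 genes that fell. The log2 fold change was -5.01 ± 0.08 (SE, n = 2 per state, edgeR adjusted p = 1.23e-14).

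Otx2 encodes a homeodomain factor that directs OCT4 to enhancers of the formative epiblast and later patterns the forebrain and midbrain. It had 5389 and 3541 counts in Undiff (150.01 and 113.2 CPM, higher in replicate 1), and 0 and 1 count in Day4. Its Day4 libraries were thus at the floor of 3 counts or fewer, and a count of 0 allows up to 0.0837 CPM in Day4 replicate 1. Summed over replicates and scaled for depth, Undiff exceeded Day4 by 11240-fold, with an exact 95% interval of 2017 to 444000 that covers counting error only. The fitted log2 fold change of -13.09 was the lowest of the 19891 genes in the edgeR fit (adjusted p = 1.41e-14). A fitted value at such counts depends on the prior count, and ran from -15.15 without Day4 replicate 2 to -11.74 in DESeq2 with shrinkage.

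Foxd3 encodes a forkhead factor that prepares enhancers in the epiblast and is a specifier of neural crest. Its 356 and 348 counts in Undiff (9.91 and 11.1 CPM) became 1 and 0 counts in Day4. The summed ratio of Undiff to Day4 was 886.1, with an exact 95% interval of 158.5 to 35050. The fitted log2 fold change was -9.44 (edgeR adjusted p = 2.19e-12), between -11.66 and -8.38 over the alternatives. Both Foxd3 and Otx2 were near 0 in both Day4 libraries, while the core genes kept 19 or more counts in each Day4 library. Foxd3 had 704 summed counts in Undiff, however, and the core genes 8979 or more. The interval of Foxd3 holds the summed ratios of Pou5f1 (233.7) and Utf1 (205.5), so a larger fall than in these genes is not shown.

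Zic2 encodes a zinc-finger factor bound at ESC enhancers, and it is also needed for forebrain development. It had 17.2 and 18.0 CPM in Undiff and 0.195 and 0.103 CPM in Day4, from 7 and 5 counts. The log2 fold change was -6.92 ± 0.19 (SE, n = 2 per state, edgeR adjusted p = 1.03e-12). The 1.91-fold difference between the Day4 libraries lay within counting error (exact 95% interval 0.520 to 7.61).

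Pou3f1 encodes OCT6, a POU factor of the primed epiblast that is used again in neural and Schwann cells. It had 21.9 and 19.98 CPM in Undiff, and 29.6 and 23.4 CPM in Day4, from 786, 625, 1061 and 1141 counts. The 2 states did not overlap, but the gap between 21.9 and 23.4 CPM was smaller than the gap between the Day4 libraries. The log2 fold change was 0.33 ± 0.10 (SE, n = 2 per state). With an edgeR adjusted p of 0.00908 it passed the p-value threshold and missed the minimum fold change. The log2 fold change was 0.16 without Day4 replicate 1 and 0.47 without Day4 replicate 2. Over the edgeR and DESeq2 alternatives that kept all 4 libraries and tested against no change, the adjusted p ran from 0.000479 to 0.086. The largest came with all libraries thinned to the smallest total. The glmTreat test, which is against the minimum fold change, is not in this range.

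**Figure D2:**
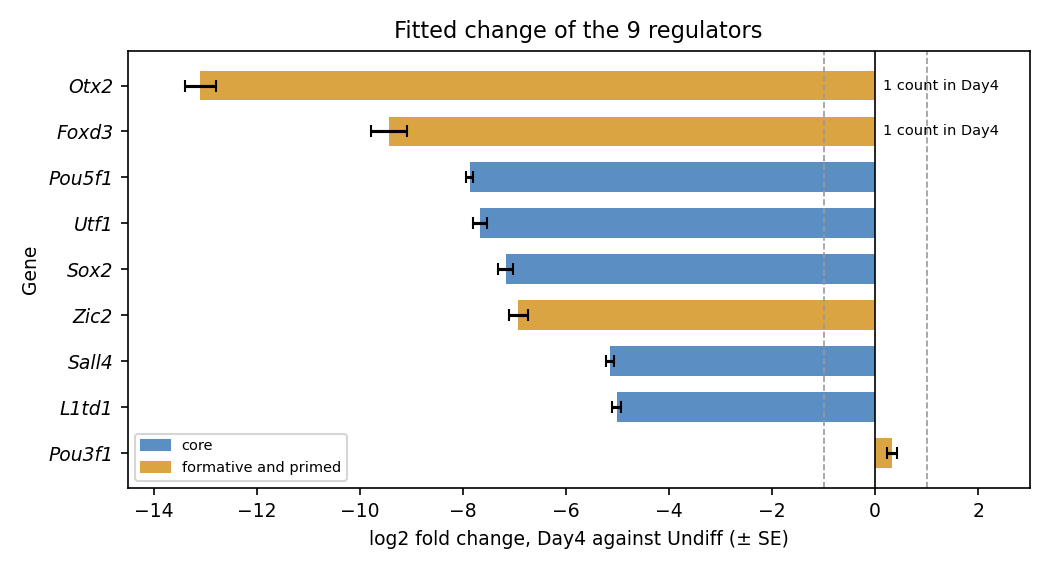
Fitted log2 fold change of the 9 regulators, Day4 against Undiff, with bars of 1 SE from the edgeR fit; dashed lines mark the minimum fold change of a DEG. The values run from -13.09 for Otx2 to 0.33 for Pou3f1, and the fitted values of Otx2 and Foxd3 rest on 1 count each in Day4.

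The order of the genes changed between the states. On a scale per kilobase of merged exons (RPKM), the levels in Undiff were 376.3 ± 5.2 (SD, n = 2) for Pou5f1, 227.5 ± 29.6 for L1td1, 169.2 ± 13.0 for Sox2 and 108.8 ± 0.99 for Utf1. Otx2 at 31.2 ± 6.2 and Sall4 at 28.8 ± 1.9 RPKM overlapped, and Zic2 at 6.11 ± 0.18, Pou3f1 at 5.44 ± 0.35 and Foxd3 at 4.53 ± 0.37 RPKM came last. In Day4, L1td1 at 7.06 ± 0.33 and Pou3f1 at 6.89 ± 1.14 RPKM led and overlapped. They were followed by Pou5f1 at 1.62 ± 0.10 and Sox2 at 1.24 ± 0.68 RPKM, and by Sall4 at 0.805 ± 0.056 and Utf1 at 0.568 ± 0.354 RPKM. Among these 4, each overlapped its neighbour in the order. Zic2 lay apart at 0.0517 ± 0.0228 RPKM, above Foxd3 and Otx2. Exon lengths were taken from GENCODE, while the methods name a UCSC iGenomes annotation for the gene counts. The lengths may thus differ from those of the counted exons. With the length of the longest coding transcript in place of merged exons, an alternative chosen after seeing the data, the order was the same, while Otx2 and Sall4 no longer overlapped in Undiff, nor Pou5f1 and Sox2, or Sall4 and Utf1, in Day4.

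The summed level of the 9 genes was 2308 and 2472 CPM in Undiff and 65.6 and 55.3 CPM in Day4. Pou5f1 made up 36.3% and 34.6% of this sum in Undiff, and 5.79% and 6.30% in Day4. Pou3f1 made up 0.948% and 0.808% in Undiff, and 45.2% and 42.3% in Day4. L1td1 held 28.4% and 31.9% in Undiff, and 35.3% and 39.2% in Day4. The sum in Day4 was thus mostly Pou3f1 and L1td1 in both libraries.

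Ratios to Pou5f1 within a library, which need no scaling, show how far the genes moved apart. The log2 ratio of Sall4 to Pou5f1 was -2.46 and -2.36 in Undiff and 0.16 and 0.42 in Day4, a difference of 2.70. The difference was 2.85 for L1td1, 8.19 for Pou3f1, 1.02 for Zic2 and 0.66 for Sox2. It was -4.76 for Otx2 and -1.13 for Foxd3, with 0.5 added to each count. Single Day4 libraries moved several of these values: without Day4 replicate 1 the difference was 0.13 for Sox2, 0.63 for Zic2 and -2.08 for Foxd3, and without Day4 replicate 2 it was 1.18 for Sox2, 1.40 for Zic2 and -0.18 for Foxd3. The ratio interval of Foxd3, from 158.5 to 35050, holds the 233.7 of Pou5f1. For these 7 genes the states did not overlap (two-sided exact permutation p = 0.333 for each, the smallest that 2 against 2 libraries allow, so that none can pass a threshold of 0.05). Utf1 kept close to Pou5f1, with a difference of 0.15 (exact permutation p = 1, 8 ratios compared), which turned to -0.46 without Day4 replicate 1.

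**Figure D3:**
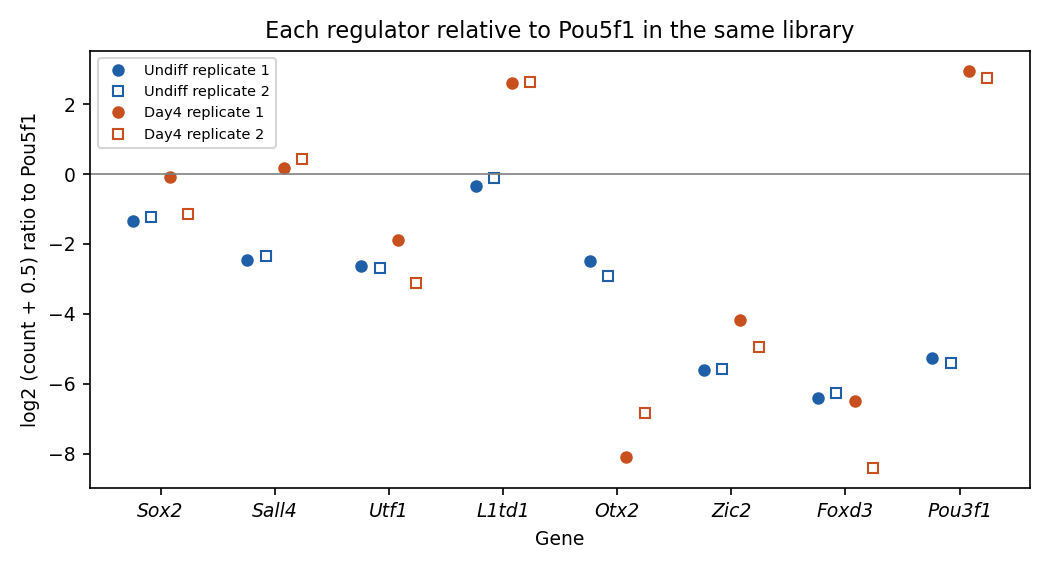
The log2 ratio of each regulator to Pou5f1 within the same library, with 0.5 added to each count, for the 4 libraries. Pou3f1 moved from -5.26 and -5.42 in Undiff to 2.96 and 2.74 in Day4, while the Undiff ratios of Utf1 lie between its Day4 values.

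Relatives of the regulators in the same gene families followed different courses. Among SALL genes, Sall1 fell with Sall4, from 277.9 and 301.0 CPM to 4.69 and 4.12 CPM, a log2 fold change of -6.05. Sall2 rose from 16.8 and 15.8 CPM to 162.4 and 156.3 CPM, a log2 fold change of 3.29, and Sall3 fell from a level near 2 CPM by 1.20 on the log2 scale. The call of Sall3 was lost in glmTreat, without Undiff replicate 2 (-0.90) and without Day4 replicate 2 (-0.84). Sall4 counts made up 34.0% and 34.3% of all SALL counts in Undiff and 2.46% and 2.82% in Day4, when Sall2 held 94.3% in both libraries.

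Among FOXD genes, Foxd2 rose from 1 count in each Undiff library to 16.3 and 16.6 CPM in Day4, a summed ratio of 553.4 (exact 95% interval 152.9 to 4574). Foxd1 rose from 0.167 and 0.128 CPM to 5.78 and 6.67 CPM. Foxd3 counts were 97.3% and 98.3% of the FOXD counts in Undiff, and 0.126% and 0% in Day4. The summed level of the family was 10.2 and 11.3 CPM in Undiff and 22.1 and 23.2 CPM in Day4, most of it Foxd3 in Undiff and Foxd2 in Day4.

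Zic5, a relative of Zic2, fell with it, from 12.4 and 10.5 CPM to 0.0279 and 0.123 CPM, a log2 fold change of -7.06. Zic1 rose from 1 count in Undiff to 44 counts in Day4, a ratio of 34.96 (exact 95% interval 5.96 to 1412). Without Day4 replicate 1 its log2 fold change was 4.28, and it was not called because its mean count missed the minimum. For OTX genes, neither Otx1 nor Crx was called, and both stayed at 3 counts or fewer in every library.

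The SOXB1 relatives of Sox2 also fell, Sox1 by 1.00 and Sox3 by 2.02 on the log2 scale, from levels near 1 CPM. The call of Sox1 (16, 24, 9 and 16 counts, edgeR adjusted p = 0.0438) was lost in 8 of the 12 alternatives. Sox2 remained the main SOXB1 gene, with 99.6% and 99.5% of the counts in Undiff and 85.2% and 76.8% in Day4. Of the other 18 SOX genes, 9 rose, 5 fell and 4 were not called, against 22.2% of all genes higher and 20.6% lower. The median log2 fold change of the 18 was 1.07. Sox9, a regulator of cartilage and many progenitors, rose from 0.223 and 0.160 CPM to 35.9 and 38.0 CPM, a log2 fold change of 7.56. Sox6 changed by 6.03 and Sox5 by 5.34, while Sox13 (-1.40), Sox15 (-5.18) and Sox21 (-3.64) fell.

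Pou3f1 held 98.5% and 96.5% of the counts of the POU class III genes in Undiff, and 91.4% and 93.1% in Day4. Its relatives Pou3f3 and Pou3f4 rose, by 2.95 and 1.35 on the log2 scale, and stayed under 2 CPM. The call of Pou3f4 was lost in 5 of the 12 alternatives, with a log2 fold change of 1.09 without Day4 replicate 1 and 0.96 without Undiff replicate 1. Pou3f2 was not called, with 0.614 CPM in Day4 replicate 1 and 0.103 CPM in replicate 2. Of the other 13 POU genes, 11 had a count. Of these 11, 4 rose, 4 fell and 3 were not called, against 22.2% of all genes higher and 20.6% lower. Among the called genes, the largest changes were in Pou4f2 (-5.43), Pou2f3 (-4.27) and Pou4f1 (-3.58), all from under 6 CPM in Undiff. Pou4f3, with 7, 10, 0 and 0 counts, had too low a mean count to be called.

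**Figure D4:**
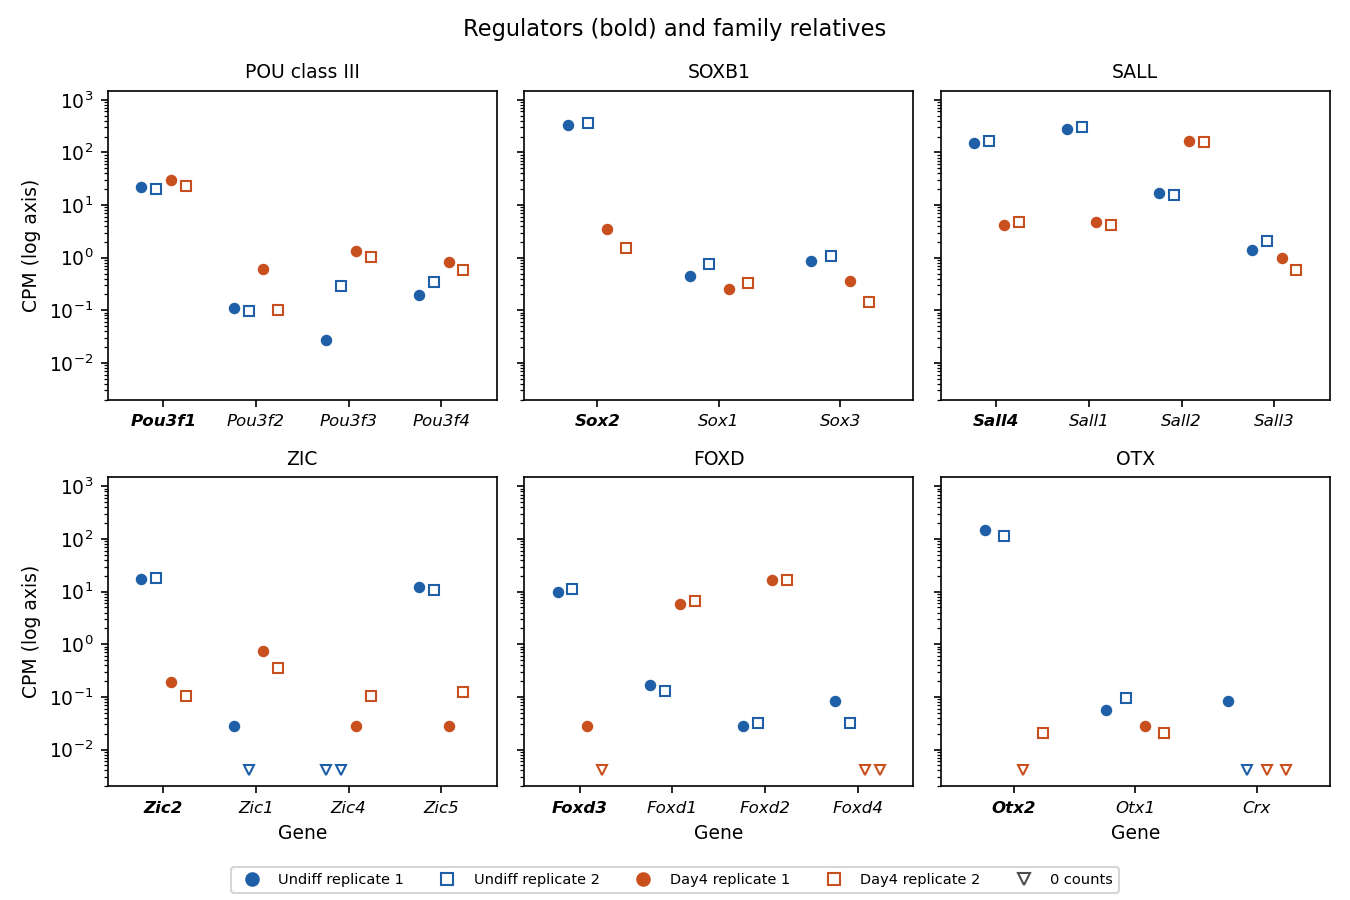
CPM on a log axis of the regulators (bold) and relatives of theirs in 6 gene families, in Undiff (blue) and Day4 (orange), with triangles for 0 counts. Sall2 rose from 16.8 and 15.8 to 162.4 and 156.3 CPM where Sall4 fell, and Foxd2 rose to 16.3 and 16.6 CPM where Foxd3 fell; CPM is not scaled for gene length, so heights are to be compared between states and not between genes.

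The naive network, the factors that hold ESCs in the ground state, had 11 of 12 genes lower and 1 higher. Over all genes, 20.6% were called lower and 22.2% higher. The median log2 fold change of the 12 was -5.41, against -0.03 for all genes. Zfp42 (-8.24), Tcl1 (-7.57) and Esrrb (-7.09) changed most. Esrrb, a nuclear receptor that binds beside OCT4, went from 295.3 and 308.8 CPM to 2.29 and 2.15 CPM. Tbx3 rose, from 13.6 and 17.8 CPM to 37.6 and 39.4 CPM. Tbx3 is also known from endoderm and heart.

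Genes linked to the formative and primed states were divided, as the 4 formative regulators were. Of 17, 11 fell, 4 rose and 2 were not called, against 20.6% of all genes lower and 22.2% higher. The median log2 fold change of the 17 was -2.02. Nodal (-7.17), a TGF-beta family ligand of the epiblast, and Zic5 were among those with the largest falls. The 4 that rose were Cdh2 (3.65), Sall2 (3.29), Sox4 (2.03) and Sox11 (1.78), which are also widely expressed in mesenchymal or neural tissue. Fgf5 had a log2 fold change of 0.99 and Dnmt3a of 0.71, both under the minimum fold change. Fgf5 reached that minimum with library totals (1.06), after thinning (1.00), without Day4 replicate 1 (1.11) and without Undiff replicate 1 (1.04).

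All 12 of the listed targets of OCT4 and SOX2 fell, against 20.6% of all genes called lower. Their median log2 fold change was -6.82, against -0.03 for all genes. The list shares Nanog and Zfp42 with the naive network. Tdgf1, a Nodal co-receptor, went from 1231 and 1144 CPM to 0.446 and 0.533 CPM, a log2 fold change of -11.21. Fgf4, whose enhancer is bound jointly by OCT4 and SOX2, went from 228.7 and 216.8 CPM to 0.112 and 0.164 CPM. The chromatin genes Trim28 (-1.02), Jarid2 (-1.87) and Rif1 (-2.35), which are expressed in many tissues, had smaller changes. Trim28 lost its call with library totals, in glmTreat and without Undiff replicate 2, which left 11 of the 12.

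Of 16 protein partners of OCT4, 4 were called lower, against 20.6% of all genes, 12 were not called and none was called higher, and the median log2 fold change was -0.71. Parp1 (-0.98) and Wdr5 (-0.97) lay just short of the minimum fold change, and 6 partners were called in DESeq2, with RLE size factors, after filterByExpr, after thinning and without Day4 replicate 2. The 3 with the largest falls were Ctbp2 (-2.32), a corepressor, Rest (-1.60), a repressor of neuronal genes, and Zfp281 (-1.28). Ctbp2 was at 365.6 and 368.4 CPM in Undiff and 70.1 and 76.3 CPM in Day4.

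For each regulator, the genes with the most similar course over the 4 libraries were found by the distance between centred log2 CPM, among 16471 genes. The closest to Pou5f1 was Spp1 (distance 0.18), the closest to Sox2 was 2410141K09Rik (0.029), and the closest to Sall4 were Ggt1 (0.059) and Dppa3 (0.068). The closest to L1td1 were Tfcp2l1 (0.16) and Nefh (0.16), and the closest to Utf1 were Fgfbp1 (0.24) and Myo1g (0.25). Pou3f1 was closest to Gm4532 (0.065) and Tbx20 (0.073), and Zic2 to Slc47a2 (0.22). Otx2 had no close neighbour, with Dnmt3l at 1.53 and Tdgf1 at 1.56. With 4 libraries in 2 states, such distances rest mainly on the fold change and the spread between replicates. Some neighbours had few Day4 counts, such as 5 and 3 for Fgfbp1, 4 and 2 for Myo1g and 2 and 1 for Slc47a2. The spread between their Day4 libraries is thus subject to large counting error.

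Markers of other cell types also differed between the states, and their part in the results was not tested. Over all genes, 22.2% were called higher and 20.6% lower. Of 8 endoderm markers, all rose, and their summed level went from 31.6 and 34.1 CPM to 634.2 and 628.7 CPM. Most of the Day4 sum was Gata6, Gata4 and Dab2, with means of 275.7, 257.0 and 86.0 CPM. Sox17, Apoa1, Foxa2, Afp and Ttr stayed low in Day4, with means of 4.05, 4.19, 1.49, 1.64 and 1.38 CPM. Gata6 (7.09) and Gata4 (5.86), factors of the early endoderm, rose. Afp had 0 counts in both Undiff libraries and was at least 18.3-fold higher in Day4, against 3 counts per library. Of 10 fibroblast markers, 8 rose and 2 (Thy1 and S100a4) fell, and the sum went from 79.2 and 71.3 CPM to 1730 and 1581 CPM. The largest fitted log2 fold changes were 9.14 for Col3a1 and 5.48 for Postn. Lum rose from 2 to 76 counts, a ratio of 30.2 (exact 95% interval 8.08 to 253.8). Of 8 neural crest markers, 6 rose and 2 were not called, with sums of 24.2 and 25.8 CPM in Undiff and 242.8 and 235.4 CPM in Day4. Ednrb (7.90), Foxc1 (6.00) and Snai2 (5.15) rose most, while Foxd3, which specifies neural crest, was near 0. The largest part of the Day4 sum was Ets1, with a mean of 112.4 CPM. The 2 not called were Sox10 and Tfap2a. Sox10 had means of 0.737 CPM in Undiff and 0.410 CPM in Day4, a log2 fold change of -0.80. Tfap2a had means of 0.769 and 1.02 CPM, a log2 fold change of 0.42.

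Of 12 neural progenitor and neuron markers, 3 rose, 5 fell and 4 were not called, against 22.2% of all genes higher and 20.6% lower. The summed level of the 12 was 142.5 and 141.8 CPM in Undiff and 113.8 and 124.6 CPM in Day4. Most of the Day4 sum was Nes, which went from 43.3 and 46.7 CPM to 99.4 and 112.2 CPM. Tubb3 went from 71.7 and 68.7 CPM to 5.33 and 4.72 CPM. Nes (1.24) and Fabp7 (3.10) were among those that rose, and Elavl3 (-5.74) and Tubb3 (-3.82), both neuronal, fell, as did Sox1 and Sox3. Of 8 mesoderm markers, 2 rose, 2 fell and 4 were not called, against 22.2% of all genes higher and 20.6% lower. Their sums were 18.6 and 18.4 CPM in Undiff and 154.9 and 157.3 CPM in Day4. Most of the Day4 sum was Kdr, at 114.7 and 119.6 CPM. Hand2 (8.14) and Kdr (4.31) rose. T, a gene of the primitive streak, fell from 187 to 4 counts, a ratio of Day4 to Undiff of 0.0170 (exact 95% interval 0.00458 to 0.0442). None of the other marker genes of these 5 lists was at 0 in both libraries of a state.

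Overlapping genes are uncertain. The methods say that strand was taken into account in counting and name only the Direct RNA libraries as strand-specific, with no option given for TruSeq gene counts, and without strand the fragments of such genes cannot be told apart. In the GENCODE annotation of GRCm38, Sox2 (chr3:34650405-34652461, plus strand, a single exon) lies within Sox2ot, a long noncoding gene of the same strand, without sharing exon bases. Sox2ot had 54, 54, 3 and 4 counts. Otx2 (chr14:48657677-48673819, minus strand) shares 154 exon bases with Otx2os1 on the other strand, which had 4, 4, 0 and 0 counts, and 168 with Gm49154 on its own strand, which is not counted in these files. Pou5f1 (chr17:35506018-35510772, plus strand) shares 317 exon bases with Gm19553, Sall4 (chr2:168748332-168767943, minus strand) 526 with Gm14261, and Pou3f1 (chr4:124656807-124660655, plus strand) 330 with Gm2164, all on the other strand and not counted in these files. Utf1 (chr7:139943789-139945112), L1td1 (chr4:98726734-98738480) and Zic2 (chr14:122475435-122479852), all on the plus strand, overlapped no other gene. Foxd3 (chr4:99656299-99658622, plus strand) contains the small miRNA gene Gm23366.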

How the data were processed

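R1 ESC RNA was sequenced by the authors from 2 Undiff and 2 Day4 cultures. They used cutadapt for trimming, STAR 2.4.2a for alignment (mm10) and htseq-count for counting. The deposited values are raw counts per gene symbol; the strand option is not given in the sources used here. The labels and methods differ on the RA unit (mM or µM) and on the library kit. Members and gene lists were chosen with earlier results of these data known, and AGGTCA after the start windows had been read. Counts were TMM-scaled and tested with edgeR 4.0.16 (glmQLFit with legacy off, glmQLFTest; state only; SE as the log2 fold change over the root of F) in R 4.3.3, with Benjamini-Hochberg adjustment over 19891 genes; it was tested on simulated data. DESeq2 1.42.0, other scalings, filters, thinning and left-out libraries were alternatives. With 1 to 3 counts in a state a ratio with its interval was given in place of the planned bound. Besides the members, the text names from each list the 3 DEGs of largest change and those against its majority. Overlapping genes and the nearest genes by course are named too. Jarid2, Rif1, Trim28, Fgf5, Dnmt3a, Parp1, Wdr5 and family relatives without a call were added after their values were seen. So were the endoderm markers Dab2, Sox17, Apoa1, Foxa2 and Ttr and the neural crest markers Sox10, Tfap2a and Ets1. Summary lines of htseq-count stayed out of totals, and replicates differed beyond sampling noise. Some genes that the rule names are not reported here.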

Additional observations from a re-analysis of the deposited data

How the results depend on the processing

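The count of regulators called lower was 8 under each of the 12 alternatives (other tool, scaling, filter, depth, test, replicate block or left-out library), and Pou3f1 was called under none. DEGs numbered 8521, and between 7483 (glmTreat) and 8549 (library totals) otherwise. The replicate numbers did not pair the libraries (r = -0.011 between deviations across 16472 genes, 2 pairs), and the fit with the replicate block gave 8515 DEGs. The log2 ratio of Utf1 to Pou5f1 changed from 0.15 to -0.46 without Day4 replicate 1, and lay at 0.76 without Day4 replicate 2; the cause was not tested. Scalings moved the median of all genes by at most 0.07 on the log2 scale. Depth limited Otx2, Foxd3 and Zic2 in Day4, at 1, 1 and 12 counts in total. With 2 libraries a state, the edgeR p-values set the difference between states against the spread between these cultures, moderated across genes. They do not cover variation beyond these cultures.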

Other observations

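Sox2 and Utf1 stood out for the difference between their Day4 libraries. Of 2889 genes with 50 to 500 summed Day4 counts, 13 (0.45%) were at least 2-fold higher in Day4 replicate 1, among them Utf1 and Sox2, and 19 (0.658%) were at least 2-fold higher in replicate 2. The other 11 of the 13 included Afp, the platelet genes Pf4 and Tubb1, and Trh and Dmrt1, and the 19 included Ttr, Foxa1 and Lhx3, all named after their values were seen. The ratios of replicate 1 to replicate 2 were 1.09 for Pou5f1, 0.907 for Sall4, 1.07 for L1td1 and 1.27 for Nanog, while Nr0b1 had 1.77 (exact 95% interval 0.997 to 3.20) and Prdm14 2.99 (0.959 to 11.0). Genes of neural progenitors with fewer counts had ratios of 5.99 for Pou3f2 (22 and 5 counts, exact 95% interval 2.21 to 20.2), 9.52 for Pax3 (14 and 2 counts, 2.19 to 86.3), 2.16 for Zic1 (27 and 17 counts, 1.14 to 4.23) and 2.53 for Sox3 (13 and 7 counts, 0.937 to 7.48). These genes were picked with their values known, and the intervals cover counting error only.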
